A study of Mus musculus with 6 samples.

Results

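The 9 genes described here encode cyclic nucleotide phosphodiesterases and a phosphodiesterase-associated protein. They are Pde4a, Pde4b, Pde4d, Pde3b, Pde7a, Pde8a, Pde2a, Pde1b and Pde6d, taken as every probe that carries these symbols in the platform annotation. They matched 23 of the 45281 probes and 8 of the 9 genes, since no probe carried the symbol Pde8a in the annotation used, and Pde8a was not analysed here. Of the 23 probes, 15 were kept for testing, which covered all 8 genes with a probe. The list was chosen by values of the strain contrast, since the normalized intensities of Pde4d in Sle2 and B6 were known when it was drawn up. The strain differences of members are therefore a description and support nothing.

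Splenic B cells were taken fresh from 3 Sle2 mice and 3 B6 mice, and the total RNA of each mouse was hybridised to its own Illumina BeadChip. Sle2 mice are C57Bl/6 congenic mice that carry the Sle2 lupus locus of chromosome 4 from the NZM2410 strain, and B6 mice are wild type C57Bl/6. The segment is present in every cell type of these mice, and the labels used give no age. A probe counted as detected at a detection p-value under 0.05 and was kept when detected on at least 3 of the 6 arrays. Detection reached 17417 to 17923 probes on the different arrays. All 6 B cell markers with a probe were kept for testing. Values are normalized log2 intensities, and the lowest value of a detected probe lay between 4.90 and 4.95 on the 6 arrays.

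Phosphodiesterases break down the second messengers cAMP and cGMP and so end the signals that adenylyl and guanylyl cyclases start. In lymphocytes cAMP acts mainly through protein kinase A and dampens antigen receptor signalling, and enzymes of the Pde4 group, which hydrolyse cAMP only, are the targets of rolipram and related drugs. Each Pde4 gene has several start sites that give long and short enzymes, so a probe may report some transcripts of a gene and not others.

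A promoter window of each Pde4 gene is shown because the 3 genes differed in how their probes behaved. The table of RefSeq sequences used (build GRCm38.p6) held 1 window for Pde4d, 4 for Pde4b and 3 for Pde4a, each of 300 bases with 250 before and 50 after a start, and is not a full list of starts. The windows were searched on both strands for the cAMP response element TGACGTCA and its core TGACG, which lies within the full element, and capitals mark the core on either strand. The Pde4d window held neither. The Pde4b and Pde4a windows shown are the ones of each gene that held a core, 1 each, beginning 34 and 50 bases before the start.
Pde4d, chr13:108653927-108654226, + strand: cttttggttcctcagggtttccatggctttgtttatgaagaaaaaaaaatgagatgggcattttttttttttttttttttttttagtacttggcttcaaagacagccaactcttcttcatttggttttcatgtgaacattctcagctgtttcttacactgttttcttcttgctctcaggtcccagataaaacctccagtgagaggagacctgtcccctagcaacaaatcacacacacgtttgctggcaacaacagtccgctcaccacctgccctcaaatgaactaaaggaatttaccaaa
Pde4b, chr4:102421305-102421604, + strand: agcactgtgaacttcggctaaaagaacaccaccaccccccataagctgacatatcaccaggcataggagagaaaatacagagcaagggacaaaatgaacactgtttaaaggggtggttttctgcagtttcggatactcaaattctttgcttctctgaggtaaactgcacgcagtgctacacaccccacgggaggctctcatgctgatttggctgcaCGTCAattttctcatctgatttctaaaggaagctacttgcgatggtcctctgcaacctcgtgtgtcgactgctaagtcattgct
Pde4a, chr9:21183851-21184150, + strand: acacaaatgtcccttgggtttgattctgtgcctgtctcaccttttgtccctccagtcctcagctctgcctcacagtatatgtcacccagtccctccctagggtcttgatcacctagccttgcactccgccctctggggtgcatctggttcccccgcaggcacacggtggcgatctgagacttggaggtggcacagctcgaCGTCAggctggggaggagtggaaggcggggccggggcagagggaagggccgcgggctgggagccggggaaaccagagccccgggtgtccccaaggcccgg
The full element was in 0 of 18 windows of the 7 members that matched and in 1.79% of all 32851 windows. The core was in 4 of the 18, in 1 window each of Pde4a, Pde4b, Pde8a and Pde2a, and in 20.8% of all windows. A match is a run of letters and not a shown binding site.

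Pde4d, which encodes a cAMP-specific phosphodiesterase, had 5 probes, and only 2 of them were detected on all 6 arrays. With probe ILMN_1236700 the B6 mice were at 5.64, 6.38 and 5.78 and the Sle2 mice at 6.96, 7.26 and 6.89. Each Sle2 mouse was above every B6 mouse, and B6 mouse 2 stood nearest to them. The Sle2 mean was 7.03 ± 0.20 (SD, n = 3) and the B6 mean 5.93 ± 0.40 (SD, n = 3), a difference of 1.10 on the log2 scale (SE 0.19) or 2.15-fold. Before normalization the intensities of this probe were 169.1, 185.5 and 157.5 in Sle2 and 78.5, 106 and 84.4 in B6, a ratio of means of 1.90. In these bulk samples a change in RNA per cell and a change in the kinds of cells present cannot be told apart.

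With the other detected Pde4d probe, ILMN_1246700, the B6 mice were at 5.70, 5.74 and 5.58 and the Sle2 mice at 5.90, 5.82 and 5.64. The strains overlapped, since Sle2 mouse 3 lay below B6 mice 1 and 2. The difference was 0.11 (SE 0.11). Its intensities before normalization were 98.7, 88.2 and 84.2 in Sle2 and 80.7, 78.9 and 77.3 in B6, a ratio of 1.14. The annotation assigns both of these probes to the same RefSeq transcript, NM_011056. Another probe of that transcript, ILMN_1215021, was detected on no array (4.69 to 4.77 in Sle2 and 4.46 to 4.73 in B6). The remaining pair are assigned to cDNA clones. ILMN_1235680 was detected in B6 mouse 1 alone, at 5.31 against 4.66 to 4.87 elsewhere, and ILMN_1230472 on no array. Thus 1 of the 2 Pde4d probes detected on all arrays separated the strains, where 23.1% of all kept probes did, and nothing is read from that count. The remaining Pde4d probes were not kept for testing. Where each probe lies in the gene is not analysed here.

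**Figure D1:**
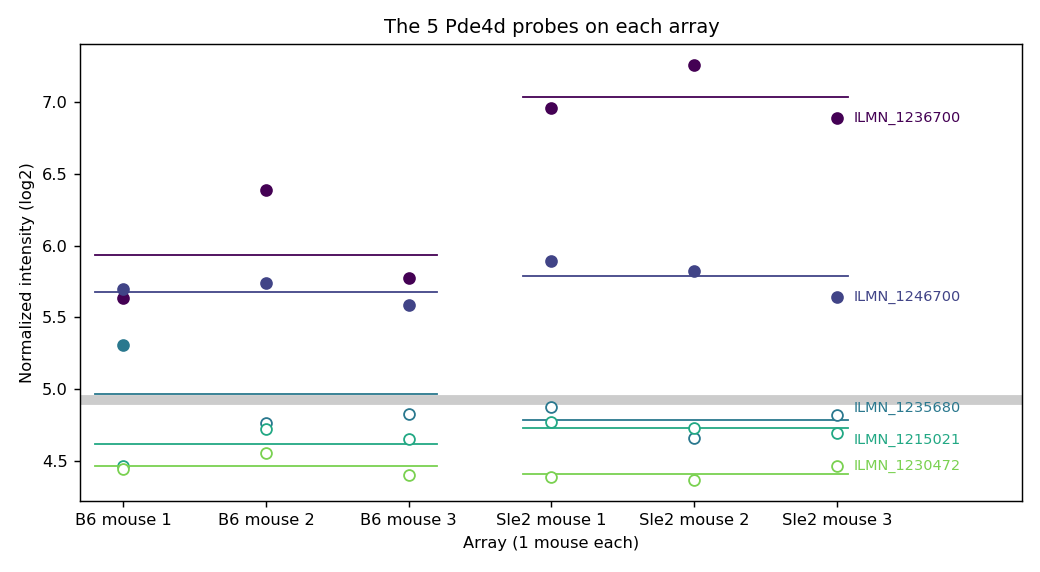
Normalized log2 intensity (y axis) of the 5 Pde4d probes on the array of each mouse (x axis). Filled points were detected and open points were not, horizontal lines are strain means, and the grey band is the lowest value of a detected probe across arrays (4.90 to 4.95). ILMN_1236700 is at 6.89 or above in Sle2 and at 6.38 or below in B6, while ILMN_1246700 stays between 5.58 and 5.90 in all 6 mice.

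The log2 ratio of ILMN_1236700 to ILMN_1246700 on the same array was 1.06, 1.44 and 1.25 in Sle2 and -0.06, 0.64 and 0.19 in B6. It averaged 1.25 ± 0.19 over the Sle2 mice and 0.26 ± 0.36 over the B6 mice (SD, n = 3 each), so the probes disagreed on the strain difference by 0.99. Across all 3764 genes with at least 2 kept probes, the median disagreement between the 2 brightest probes was 0.14. It was at least as large as that of Pde4d in 12 genes (0.319%), Pde4d included. It was that large in 9 of 2863 genes whose probes share a transcript, and in 8 of 931 genes whose dimmer probe lay within 0.5 of the dimmer Pde4d probe. Among genes whose brighter probe was called, as that of Pde4d was, it was that large in 4 of 27 (14.8%, median 0.39), and in 4 of 23 (17.4%) where the probes share a transcript. At an adjusted p under 0.05, which 1.06% of all kept probes passed, the brighter probe passed in 27 of the 3764 genes and both probes in 7, and Pde4d is not one of them. These counts place Pde4d among all genes and were made with its disagreement already known.

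**Figure D2:**
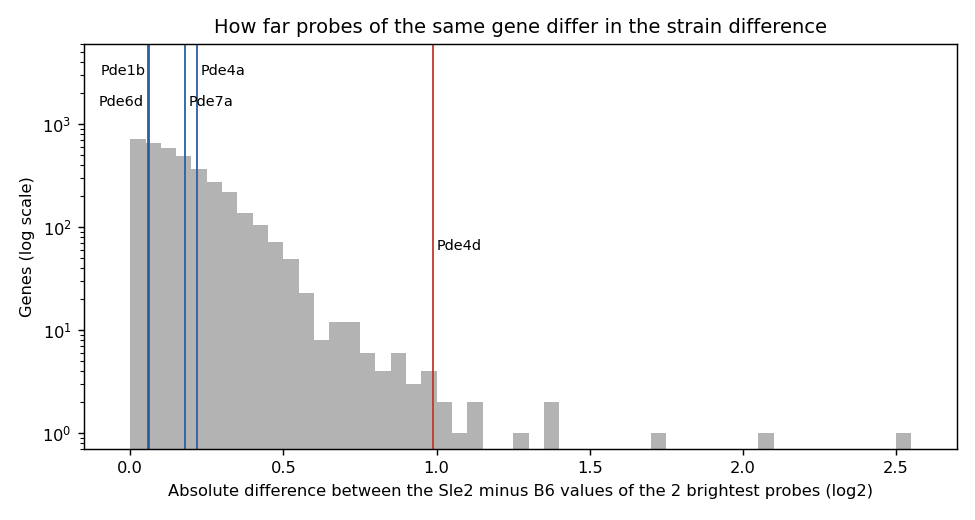
Number of genes (y axis, log scale) by the absolute difference between the Sle2 minus B6 values of their 2 brightest kept probes (x axis, log2), over 3764 genes. Vertical lines mark the phosphodiesterases with at least 2 kept probes, of which Pde4d lies at 0.99 and the others at or below 0.22.

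Pde4b, the member of the Pde4 group known for its induction in activated leukocytes, was bright with 1 probe and undetected with most others. Probe ILMN_2544890, assigned to a cDNA clone, was at 10.66, 10.91 and 10.74 in B6 and at 10.50, 10.60 and 10.84 in Sle2. The strains overlapped, with a difference of -0.13 (SE 0.12), which turned to 0.04 when arrays were scaled to equal medians. The probe of its RefSeq transcript, ILMN_2697552, was detected in Sle2 mouse 3 alone (5.18, against 4.47 to 4.69 on the other arrays), and the remaining pair were detected on no array. Pde4b is the 1 member on chromosome 4, which carries the Sle2 segment. By gene order in GRCm38.p6, 1 of its 10 nearest tested genes was called, Wdr78, lower in Sle2 and separated from Pde4b by 1 tested gene. On all of chromosome 4, 30 of 575 tested genes were called, a larger share than the 97 of 9297 (1.04%) over all tested genes. Nothing is therefore read from the 1 called gene near Pde4b.

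Pde4a, which also encodes a cAMP-specific enzyme, had 4 probes. ILMN_2751548, assigned to transcript NM_183408, was at 6.55, 6.84 and 6.65 in B6 and at 6.27, 6.59 and 6.68 in Sle2. The strains overlapped, with a difference of -0.16 (SE 0.13). The other 3 probes are assigned to transcript NM_019798. Among these, ILMN_2692031 was detected on 4 of the 6 arrays (4.70 to 5.13, difference 0.05, SE 0.13) and is the dimmest kept probe of all members. ILMN_2671726 and ILMN_1226702 were detected on no array. Probes of transcript NM_019798 thus differed among themselves in detection.

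Pde3b and Pde7a also encode cAMP-degrading enzymes. Pde3b, whose enzyme hydrolyses cAMP and is held back by cGMP, was at 5.95, 6.12 and 6.22 in B6 and at 5.80, 5.88 and 6.02 in Sle2 with its only probe. The strains overlapped, with a difference of -0.20 (SE 0.11). Pde7a, a cAMP-specific enzyme of lymphocytes, was read by a pair of probes detected on all arrays. ILMN_2604556 was at 7.41, 7.81 and 7.48 in B6 and at 7.39, 7.62 and 7.70 in Sle2, with a difference of 0.00 (SE 0.14). ILMN_2448530 was at 7.005, 6.86 and 6.60 in B6 and at 6.56, 6.77 and 6.62 in Sle2, with a difference of -0.18 (SE 0.13). The strains overlapped with both probes, and the differences lay 0.18 apart.

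Pde2a and Pde1b hydrolyse both cAMP and cGMP. Pde2a, whose enzyme is stimulated by cGMP, was at 7.69, 7.66 and 7.87 in B6 and at 7.41, 7.48 and 7.34 in Sle2. Each Sle2 mouse was below every B6 mouse, with a difference of -0.33 (SE 0.10), or 0.796 of the B6 level. It is the 1 member that was lower in Sle2 without overlap. Stard10, which was called and higher in Sle2 (0.67), lies near it on chromosome 7 with 1 tested gene between them. Pde1b, whose enzyme is switched on by calcium and calmodulin, was nearly level. Its probes ILMN_2730293 and ILMN_1224034 gave differences of -0.0003 (SE 0.10) and 0.06 (SE 0.11), and all 12 values lay between 9.05 and 9.32.

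Pde6d is named for the photoreceptor phosphodiesterase but encodes a carrier of prenylated proteins with no phosphodiesterase activity of its own. Its 4 probes were all detected on all 6 arrays and are assigned to the same transcript. The brightest, ILMN_2633897, was at 8.91, 8.85 and 8.91 in B6 and at 9.12, 9.11 and 9.17 in Sle2, with no overlap and a difference of 0.24 (SE 0.09). ILMN_3079421 also separated the strains, at 8.18, 8.13 and 8.10 in B6 and 8.33, 8.28 and 8.37 in Sle2 (difference 0.19, SE 0.09). ILMN_3158668 (0.19, SE 0.11) and the dim ILMN_1260174 (0.16, SE 0.18) had overlapping strains. The 4 differences spanned 0.08 with all mice and 0.27 without Sle2 mouse 2, where ILMN_1260174 was at -0.02, and the 2 Pde4d differences lay 0.99 apart with all mice.

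**Figure D3:**
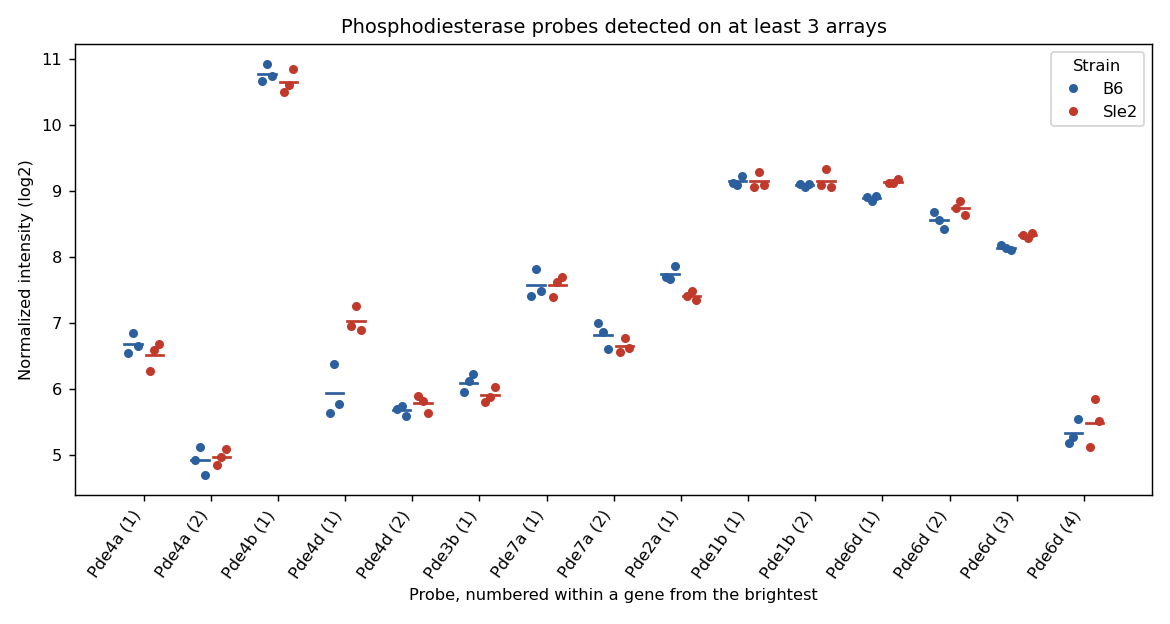
Normalized log2 intensity (y axis) of the 15 kept phosphodiesterase probes (x axis, numbered within a gene from the brightest). Points are mice (3 B6 in blue, 3 Sle2 in red) and bars are strain means. The strains stand apart for Pde4d (1), Pde2a (1), Pde6d (1) and Pde6d (3), and overlap for the other 11 probes.

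Over the 15 kept probes, 3 were higher and 1 lower in Sle2 without overlap, where 23.1% of all kept probes separated the strains (12.4% higher and 10.8% lower). With each gene read by its brightest kept probe, Pde4d was the 1 of 8 members past the threshold of the strain fit (limma, adjusted p under 0.05), where 1.04% of all 9297 tested genes were called. Since the list was drawn up with that contrast known, nothing is read from either count. The median difference of the 8 members was -0.06, against 0.02 over all tested genes, with 3 members higher and 5 lower. As large a difference as that of Pde4d, in either direction, was reached by 27 of the 9297 genes, Pde4d included. Averaging its 2 kept probes gave 0.61.

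The call of Pde4d changed with the mice and settings used. Over 16 alternatives its difference ran from 0.61 to 1.33, always higher in Sle2, and it passed the threshold in 8. It missed the threshold without any 1 of Sle2 mice 1, 2 and 3 (differences 1.14, 0.99 and 1.17) and without B6 mouse 1 or 3 (0.96 and 1.02), and passed without B6 mouse 2 (1.33). It also missed it with no filter on dim probes, with an Xist covariate and with the mean of both probes. Without background correction and with the authors' series matrix values the difference shrank to 0.81 and 0.78. The disagreement between the 2 probes ran from 0.72 to 1.19.

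**Figure D4:**
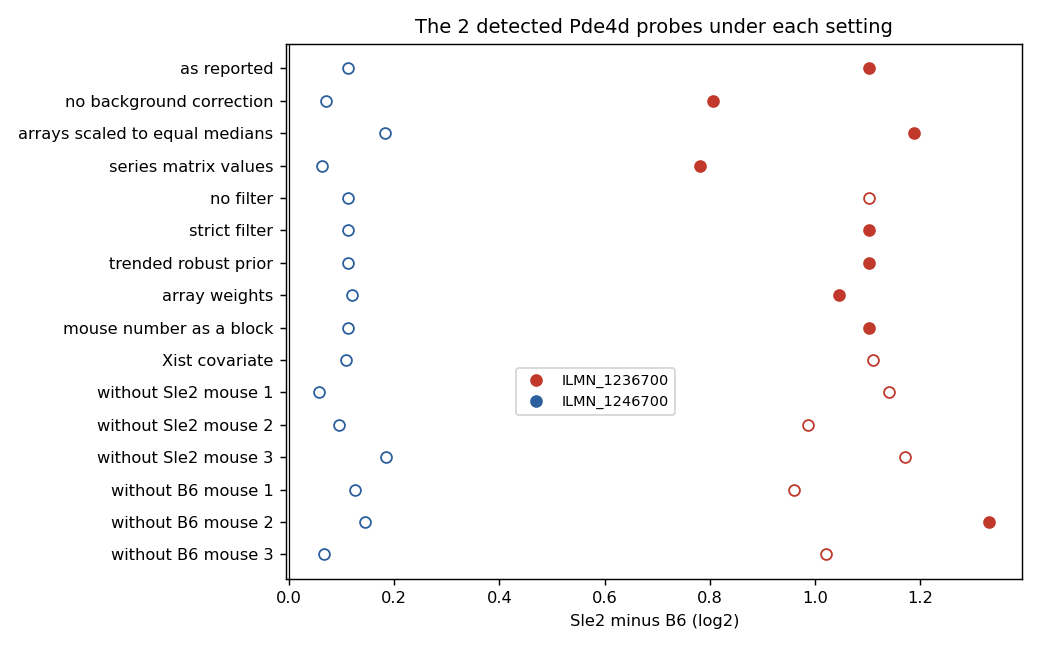
Sle2 minus B6 difference (x axis, log2) of the 2 detected Pde4d probes under each processing setting (y axis). Filled points passed an adjusted p of 0.05 in the fit over all probes and open points did not. ILMN_1236700 lies between 0.78 and 1.33 in every setting shown, and ILMN_1246700 between 0.06 and 0.18.

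Xist and the cell type markers also differed between arrays. Xist, the transcript that silences an X chromosome, was at 10.93 in Sle2 mouse 3 and 10.13 in B6 mouse 2, at 5.89 in B6 mouse 3 and at 4.30 to 4.36 in the other 3 mice. The Y-linked Eif2s3y (ILMN_1241001) was at 5.36 in Sle2 mouse 3 and 4.65 in B6 mouse 2, against 8.33 to 8.67 in the other 4. Sex-linked transcripts thus differed within both strains, with the female pattern in 1 mouse of each, and the labels used give no sex. B6 mouse 3 had signal from both genes. The Eif2s3y value of Sle2 mouse 3 (5.36) also lay above the lowest detected value of its array (4.90). Whether either RNA was mixed was not tested. Between the 2 mice with a high Xist signal the Pde4d difference (ILMN_1236700) was 0.51, and among the other 4 it was 1.40, a split made after the data were seen. T cell markers, of which 7 of 10 were tested, were all higher in Sle2 although none was called. Their mean level was 6.06 to 6.39 on the Sle2 arrays and 5.69 to 6.10 on the B6 arrays, and Cd4, Cd8a and Trat1 were not kept. Erythroid markers were at 8.04 to 8.33 in Sle2 and 7.32 to 8.07 in B6 (5 of 6 tested higher), and natural killer markers at 7.37 to 7.97 and 6.71 to 7.56 (4 of 4 higher). Neutrophil markers were at 7.13 to 7.14 and 5.97 to 7.61 (6 of 7 higher), monocyte and macrophage markers at 8.90 to 9.46 and 8.97 to 9.39 (5 of 8 higher), and platelet markers at 5.54 to 5.72 and 5.61 to 6.56 (0 of 6 higher). B cell markers were at 9.80 to 9.82 in Sle2 and 9.63 to 9.76 in B6 (4 of 6 higher, none called). Of these, Cr2 differed most (0.62, SE 0.14), and the rest lay between -0.15 (Cd79b) and 0.17 (Cd22), with Ms4a1 counted as higher at 0.0003. Some markers of other cell types were bright, such as Hba-a1 (13.49 to 14.38) and C1qb (11.21 to 11.80), beside Cd79b (13.66 to 13.95). Others were dim, such as Lat (4.35 to 5.20). The part of any of these cell types in the Pde4d difference, or in the detection of any member, was not tested.

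Other phosphodiesterase genes were mostly undetected. Of 16 further genes, all with probes, only Pde12 was kept, with 1 of its 3 probes at 7.30, 7.44 and 7.53 in B6 and 7.57, 7.58 and 7.54 in Sle2 (difference 0.14, SE 0.10, not called). Pde12 acts on oligoadenylate and not on cyclic nucleotides. Single probes of Pde1a and Pde5a and a pair of Pde8b probes were detected on 1 array each. No probe of Pde1c, Pde3a, Pde4c, Pde6a, Pde6b, Pde6c, Pde6g, Pde6h, Pde7b, Pde9a, Pde10a or Pde11a was detected on any array. Whether a gene was little expressed or its probe insensitive was not tested, and 32 of the 37 probes of these 16 genes were detected on no array. In all, 9 of the 25 genes with a phosphodiesterase name had a kept probe, Pde6d and Pde12 among them, and Pde8a had no probe.

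Genes that make cyclic nucleotides or respond to them were compared in the same fit. None of the 45 tested genes in 6 lists was called by limma, against 1.04% of all tested genes. At an unadjusted p under 0.05 there were 6 (13.3%), against 1572 of 9297 (16.9%). The median difference of the 45 was -0.07. Among the cyclases 0 of 6 tested genes passed, with Adcy7, the main adenylyl cyclase of blood cells, at -0.22 (SE 0.11), Npr2, a natriuretic peptide receptor that makes cGMP, at 0.33 (SE 0.15), Adcy4 at -0.17 (SE 0.10) and Adcy3 at -0.20 (SE 0.14). Of the receptors that raise cAMP and the Gs subunit, 0 of 4 passed. The histamine receptor Hrh2 was at 0.22 (SE 0.11), the prostaglandin receptor Ptger4, detected in 1 of 3 Sle2 mice, at -0.28 (SE 0.15), Gnas at -0.04 (SE 0.10) and the proton-sensing receptor Gpr65 at -0.03 (SE 0.15). The next brightest kept probe gave 0.01 for Adcy7, 0.25 for Hrh2 and -0.12 for Gnas.

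Downstream of cAMP, 0 of 9 effectors passed. Prkar2a, a regulatory subunit of protein kinase A detected in 1 of 3 Sle2 mice, was at -0.32 (SE 0.12), and Pkig, an inhibitor of that kinase, at -0.30 (SE 0.12) with the Sle2 mice below the B6 mice. Prkacb, a catalytic subunit, was at 0.16 (SE 0.09) and the inhibitor Pkia at -0.16 (SE 0.10). Among 13 anchoring and phosphodiesterase-binding proteins 0 passed. Akap12, a scaffold that holds protein kinase A, was at 8.13, 8.58 and 8.94 in B6 and at 7.70, 7.86 and 7.96 in Sle2, without overlap (-0.71, SE 0.19), while its other kept probe gave -0.21. Of the 45 genes, 22 had at least 2 kept probes, whose differences lay a median of 0.13 apart, and the widest gap was that of the scaffold Akap8 (-0.22 and 0.66). Akap12 passed without B6 mouse 1 (-0.92, adjusted p = 0.0318), as did the CREB coactivator Crtc2 (-0.60, adjusted p = 0.0454, against -0.35 with all mice). Arl2, a GTPase that releases cargo from the Pde6d protein, was at -0.25 (SE 0.10), the arrestin Arrb1 at -0.26 (SE 0.14) and Akap11 at 0.17 (SE 0.10). Of 12 CREB factors and cAMP-responsive genes 0 passed. Crebbp, the CREB-binding acetyltransferase, was at 7.52, 7.501 and 7.20 in B6 and 7.86, 7.998 and 7.74 in Sle2 (0.46, SE 0.12), and passed when arrays were scaled to equal medians (0.58, adjusted p = 0.0384). Sik1, a kinase induced by cAMP, was at -0.31 (SE 0.10), Sik2 at -0.31 (SE 0.15) and Fos at 0.28 (SE 0.14). The next brightest kept probe gave -0.13 for Pkig, -0.01 for Arrb1, -0.17 for Akap11 and 0.32 for Crebbp.

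**Figure D5:**
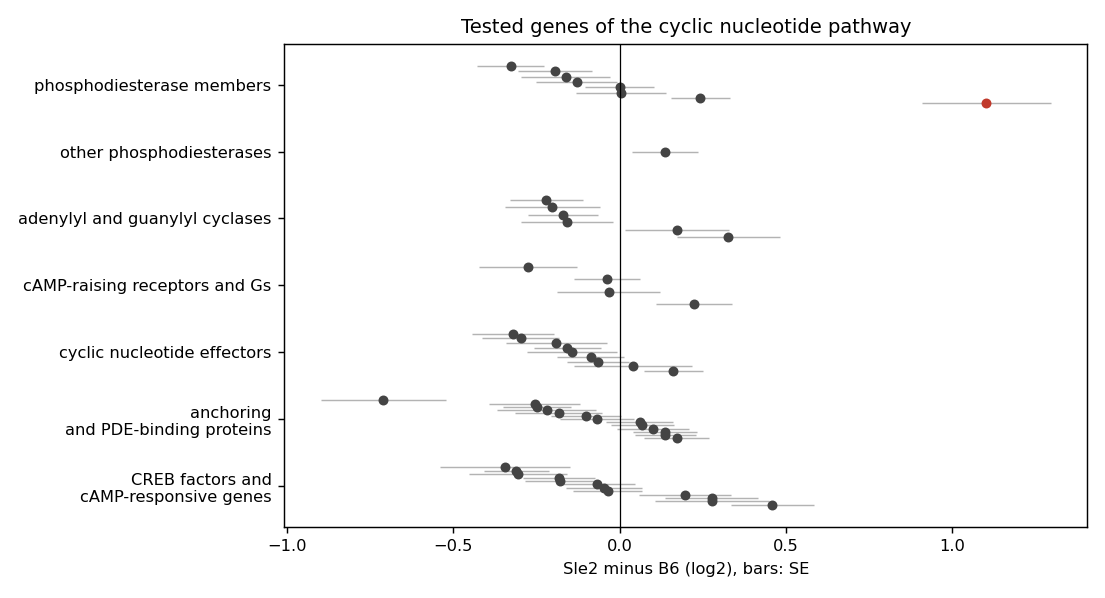
Sle2 minus B6 difference (x axis, log2, with SE as bars) of each tested gene in the phosphodiesterase group and the 6 lists of cyclic nucleotide genes (y axis), by the brightest kept probe. Red marks a gene called at an adjusted p under 0.05, which is Pde4d at 1.10, and all 45 tested genes of the 6 lists are grey, from -0.71 to 0.46.

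The genes whose pattern over the 6 arrays was most like ILMN_1236700 were Dusp16, a phosphatase of MAP kinases (Pearson r = 0.993), Ndufaf3, an assembly factor of respiratory complex I (0.991), Csnk2a1, a catalytic subunit of casein kinase II (0.99), Zbtb45 (0.989) and Blcap (0.988). The values share the strain difference, and with strain means removed the coefficients were 0.93 to 0.96. The 5 genes were picked for the highest coefficients over the same 6 arrays, so both sets of coefficients largely follow from that choice. Nothing is read from them. None of these 5 genes was called. Dusp16 was at 8.94, 9.38 and 8.98 in B6 and at 9.72, 9.77 and 9.67 in Sle2, with B6 mouse 2 again highest in its strain. Among members, the coefficient with Pde4d was 0.80 for Pde6d and -0.85 for Pde2a over the 6 arrays, and -0.85 and -0.12 with strain means removed.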

How the data were processed

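The deposited table held bead-summary intensities of 45281 probes on 6 arrays (GenomeStudio, per the submitters' processing notes), on a linear scale with neither background subtraction nor normalization, as the values show. Beside each intensity stood a deposited detection p-value, per the file headers. A further deposited table, the series matrix, held intensities that, from the values, were quantile-normalized without background subtraction (column medians 53.6264 to 53.6581); it was an alternative. Strain and mouse number came from the titles.

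Intensities were background-corrected with normexp from the detection p-values (936 negative controls, offset 16), normalized to equal quantiles and put on the log2 scale with neqc (limma 3.58.1, R 4.3.3). The 17861 kept probes were fitted with lmFit and eBayes (two-sided) and adjusted together by Benjamini-Hochberg. A gene was represented by its brightest kept probe, and 9297 genes were tested. SE is limma's. Platform symbols (34885 probes with 1, 18 with several, 10378 with none) were updated through RefSeq, GRCm38.p6. The fit was tested on simulated data. Separate mice are replicates as the titles name them, and the number of arrays limits precision.

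The members and lists were chosen with earlier results of these data known. Named by rule were all member probes, kept further phosphodiesterases, all called genes and up to 4 with the smallest p of each list, and the 5 genes most correlated with the brightest Pde4d probe. Wdr78, Stard10, Crtc2, Akap8, Eif2s3y and genes in the closing section were named after their values were seen. Alternatives were no background correction, equal medians, the series matrix, a stricter filter (every array with a detection p-value under 0.01) or none, array weights, a trended robust prior, mouse number as a block, an Xist covariate, the mean of all kept probes and each mouse left out.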

Additional observations from a re-analysis of the deposited data

How the results depend on the processing

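The 97 called genes became 173 without background correction, 187 with the series matrix values, 245 with arrays scaled to equal medians, 285 with a trended robust prior, 56 with no filter and 51 with the Xist covariate. Leaving out single mice gave 29 to 142. Scaling to equal medians moved the median of all genes from 0.02 to 0.14 and the share of higher calls from 62.9% to 89.4%. The count of called genes in the 6 cyclic nucleotide lists was 0 by limma in all but 2 alternatives. It was 1 with equal medians, and 0 to 2 when a mouse was left out. The median over the 15 kept phosphodiesterase probes was 0.05, moved to 0.15 with equal medians, and lay between -0.023 (without Sle2 mouse 2) and 0.12 when a mouse was left out. Of the 15 probes, 9 kept their sign in all alternatives and 6 changed it in some. The cause of these changes was not tested. The mouse number as a block gave 72 called genes. Same-numbered mice shared deviations with correlations of 0.20, 0.13 and 0.04, and Sle2 mice 1 and 2 correlated best with the B6 mouse of their number. Sle2 mouse 3 correlated best with B6 mouse 2 (0.07), and these were the mice with a high Xist signal. The numbers were not taken as pairs, and whether they mark pairs was not tested. The strict filter removed the dimmest kept probes of Pde4a and Pde6d. On the B6 arrays the Pde4d probe ILMN_1236700 was dim (78.5 to 106 before normalization) though above background (detection p-values of at most 0.00214), and its difference was smaller in both alternatives without background subtraction.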

Other observations

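The 12 genes whose 2 brightest probes disagreed on the strain difference at least as much as those of Pde4d lay on several chromosomes. Chromosome 4 held 3 and chromosome 9 held 4, so 58.3% lay on these chromosomes, against 11.7% of all 3764 genes with at least 2 kept probes. These chromosomes were not set by a rule beforehand, so nothing is read from that share. They also held 30 and 18 of the 97 called genes. Besides Pde4d, those of the 12 not placed on chromosomes 4 and 9 were Amy2a5, a pancreatic amylase (-2.19 and -0.81), Icosl, the ligand of ICOS (-0.25 and 0.86), Pisd-ps3, a pseudogene (0.88 and -0.18), and Ppl, the cytoskeletal linker periplakin (1.02 and -0.02). Ppl had the pattern closest to that of Pde4d, with a brighter probe higher in Sle2 and a dimmer probe near 0, and was not called. In 7 of the 12 genes 1 of the probes differed between strains by less than 0.2.

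Within B6, the spread of the 3 mice with ILMN_1236700 (Pde4d) was wide, and only 4.24% of kept probes had a wider B6 range. With ILMN_1246700 (Pde4d), 78.1% did. B6 mouse 2 was the highest B6 mouse for 6 of the 15 kept phosphodiesterase probes, mouse 3 for 6 and mouse 1 for 3.

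None of the 10 tested genes nearest to Pde4d on chromosome 13 was called, where 4 of 339 tested genes of that chromosome were, Pde4d included. The nearest called genes were Emb, which encodes embigin, at 0.96 with 14 tested genes between, and Ptpdc1 at 0.68 with 180 between.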
